A study of Mus musculus with 3 samples.

Results

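The strongest site of each of Strbp, Trdmt1 and Sos2 carried 1 of the 3 highest fold enrichments of the NUP98-HOXD13 fusion on the chromosomes of the DMSO library and was listed again with VTP50469. Every deposited interval was counted whose summit, the base of highest signal, lay in a RefSeq span of the 3 genes or within 10 kb of one. This gave 5 of the 655 intervals in the DMSO list and 4 of the 439 in the VTP50469 list. The values that chose the genes were the folds and the presence in both lists, so these are described below and not tested.

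The libraries came from a mouse leukaemia line named NUP98-HOXD13 in the labels, kept in medium with IL-3, IL-6 and SCF. Fusion protein carrying biotin was pulled down on streptavidin beads after formaldehyde crosslinking (BioChIP-seq), from cells given DMSO or 2 µM VTP50469 for 96 h. Both groups carried the biotinylated fusion and each was a single library of that line, and the labels do not say how the fusion was expressed or how many clones the line holds. The series also has an input from DMSO cells, which was not used here as a file of its own. With no replicate, every difference below is between 2 libraries, and the identity of the cells could not be checked from peak lists.

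NUP98 fusions join the disordered repeats of a nucleoporin to a chromatin or DNA-binding partner, here the homeodomain of HOXD13, and they drive acute myeloid leukaemia. Menin is an adaptor that holds the methyltransferase MLL on chromatin, and VTP50469 occupies the pocket of menin that binds MLL. The 3 genes have no shared function known from textbooks. Strbp encodes a protein with double-stranded RNA-binding domains, related to the nuclear factor NF90 and first described in spermatids. Trdmt1, also called Dnmt2, encodes a methyltransferase that modifies a cytosine in the anticodon loop of certain tRNAs. Sos2 encodes an exchange factor that loads RAS with GTP downstream of growth factor receptors, as does its paralogue Sos1.

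All 3 genes are read from the minus strand, and their sites lay on the side of the start in each case without reaching it. On mm10 Strbp spans chr2:37569868-37703878, Trdmt1 spans chr2:13504879-13544797 and Sos2 spans chr12:69583761-69681852. The windows from 250 bases before to 50 after each start are shown because they are the ends of the genes that the sites flank. They are RefSeq sequences of GRCm38.p6, 5′ to 3′ on the minus strand, at chr2:37703810-37704109 for the outer of 2 Strbp starts, chr2:13544615-13544914 for Trdmt1 and chr12:69681803-69682102 for Sos2. Capitals were reserved for matches to CAATAAA, a core bound by posterior HOX proteins, or TGATTTA, a HOX-PBX core, on either strand.
Strbp: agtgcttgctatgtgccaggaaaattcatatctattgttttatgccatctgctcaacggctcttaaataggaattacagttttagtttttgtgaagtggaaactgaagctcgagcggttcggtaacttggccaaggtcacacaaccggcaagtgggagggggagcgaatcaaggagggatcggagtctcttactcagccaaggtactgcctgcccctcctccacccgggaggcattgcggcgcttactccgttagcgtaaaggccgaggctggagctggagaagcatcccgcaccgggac
Trdmt1: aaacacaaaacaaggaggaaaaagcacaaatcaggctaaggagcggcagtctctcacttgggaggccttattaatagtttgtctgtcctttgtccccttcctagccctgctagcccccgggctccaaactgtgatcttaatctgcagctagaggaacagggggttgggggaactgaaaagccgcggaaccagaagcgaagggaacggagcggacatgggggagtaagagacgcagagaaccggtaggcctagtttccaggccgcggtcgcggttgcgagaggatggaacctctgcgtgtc
Sos2: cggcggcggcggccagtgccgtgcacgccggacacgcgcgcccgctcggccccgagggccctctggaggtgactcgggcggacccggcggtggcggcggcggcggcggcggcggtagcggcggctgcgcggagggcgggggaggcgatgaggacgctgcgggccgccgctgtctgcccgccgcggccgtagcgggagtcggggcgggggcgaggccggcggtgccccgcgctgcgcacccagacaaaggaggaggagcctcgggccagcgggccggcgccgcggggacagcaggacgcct

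None of these windows held either motif, so no base is in capitals. The same was true of the inner Strbp window. Of 32851 RefSeq windows of this length, 4.6% held the first motif and 2.97% the second, and a window without them says nothing about binding of the fusion. No interval of either list overlapped a start window of the 3 genes. Over the whole lists 14 of 613 DMSO peaks (2.28%) and 11 of 400 VTP50469 peaks (2.75%) on chromosomes 1 to 19, X and Y overlapped such a window. The windows differed in base content. G and C made up 53.0% of the outer Strbp window and 55.3% of the Trdmt1 window, near the median of 52.7% over all windows. They made up 79.7% of the inner Strbp window and 82.7% of the Sos2 window. The sequence under the sites themselves was not used here.

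The strongest site of all lay inside Strbp. In the DMSO list it ran over chr2:37683803-37685120 with a fold enrichment of 61.4. Fold was read as signal over the background that the authors' peak caller set for that position, with a pseudocount of 1 added to both. In the VTP50469 list the interval chr2:37683800-37685058 had a fold of 46.6. Both were the highest folds of their lists. The DMSO interval was 1318 bp wide, against a list median of 350 bp, and ranked 24 by width among 613. The VTP50469 interval was 1259 bp wide, ranked 14 of 400, and the list median was 335 bp. The intervals shared 1256 bp, which is 95.3% of the DMSO interval and 99.8% of the VTP50469 interval.

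The Strbp summit lay 19.8 kb downstream of the outer start in the DMSO list and 19.7 kb downstream in the VTP50469 list, 26 bp apart. This is 14.7% of the way along the span. The signal was lopsided around the summit in both libraries. With DMSO the interval reached 1023 bp from the summit toward the gene's start and 294 bp away from it, and with VTP50469 it reached 935 bp and 323 bp. The gene table gives no exons, so it is not known here whether the site is exonic or intronic.

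A weaker Strbp site was listed with DMSO alone. It lay at chr2:37692609-37692864, 8605 bp from the strong summit and nearer the start, at 11.2 kb downstream of it. It was 256 bp wide and had a fold of 9.14, ranked 207 of 613, with a −log10 q of 13.4. The strong site had 6.72 times its fold. The nearest VTP50469 summit was 8579 bp away, at the strong site. The microRNA gene Mir5128 lies between the 2 Strbp sites, 4104 bp from the strong summit and 4418 bp from the weaker one.

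Trdmt1 held 2 sites, both listed in both libraries. The strong site ran over chr2:13538285-13538780 with DMSO, with a fold of 39.9, and over chr2:13538312-13538748 with VTP50469, with a fold of 30.1. It ranked second by fold in each list. Its summits were 1 bp apart and lay 6.13 kb downstream of the start, 15.4% of the way along the span. The whole VTP50469 interval lay within the DMSO one. Unlike the Strbp interval it was close to symmetric, reaching 246 bp toward the start and 249 bp away with DMSO, and 215 bp and 221 bp with VTP50469.

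The weaker Trdmt1 site lay closer to the start, 1.53 kb downstream of it with DMSO and 1.55 kb with VTP50469. It ran over chr2:13542970-13543234 with a fold of 8.18 in the DMSO list, and over chr2:13542901-13543224 with a fold of 8.60 in the VTP50469 list. The ranks by fold were 260 of 613 and 148 of 400, and ranks from lists of unequal length show no change. The strong site had 4.88 times the fold of the weaker one with DMSO and 3.50 times with VTP50469.

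Sos2 had a single site, upstream of the gene and outside its span. It ran over chr12:69685454-69686019 with DMSO, with a fold of 31.6, and over chr12:69685469-69686002 with VTP50469, with a fold of 25.4. The summits were 13 bp apart and lay 3883 bp and 3896 bp upstream of the start. The widths were 566 and 534 bp, and the summit sat near the middle in both. A summit upstream of a span is near the gene by distance, and position alone does not assign it.

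**Figure D1:**
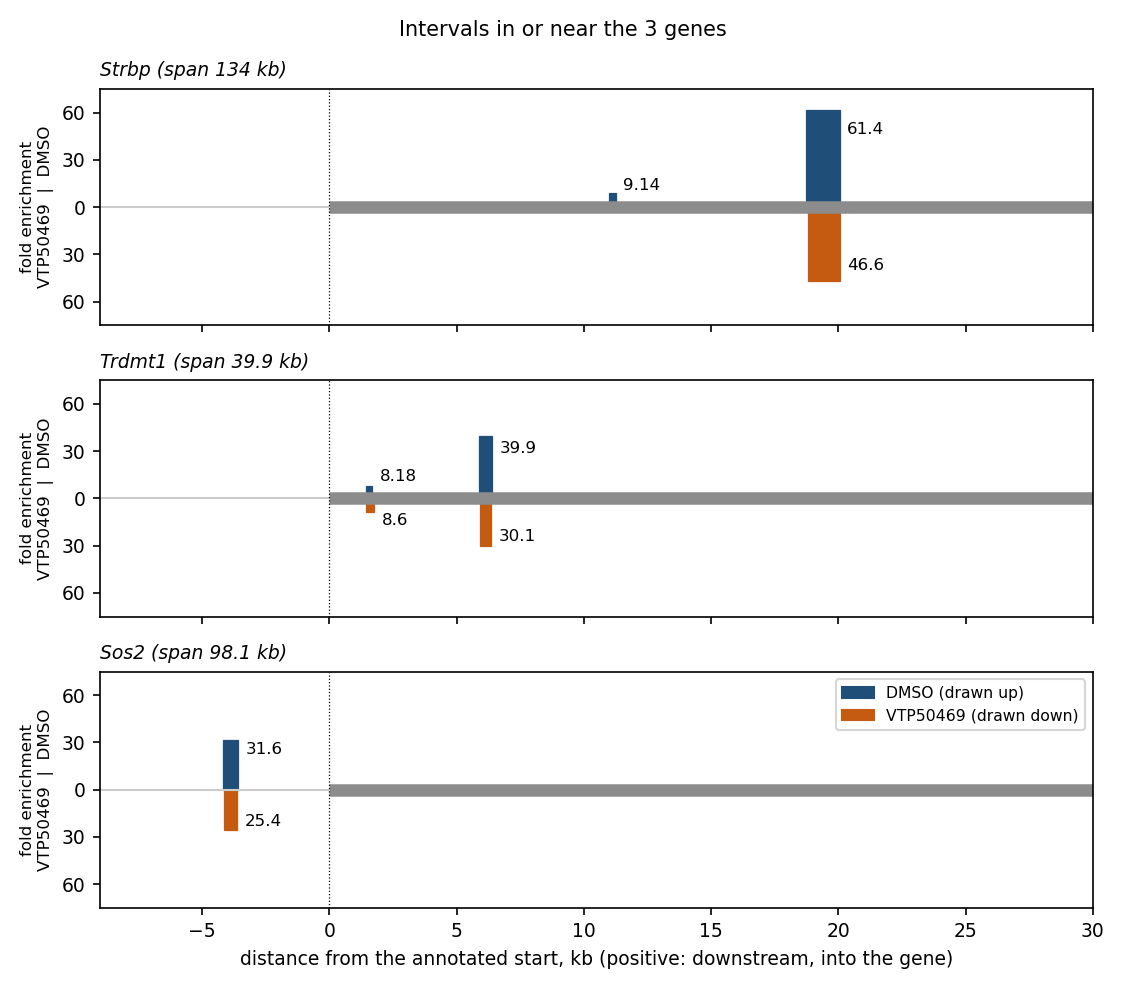
Intervals of both lists against distance from the annotated start in kb, with bar width equal to interval width and bar height equal to fold enrichment, DMSO drawn up and VTP50469 drawn down. The grey bar is the gene, whose far part is not drawn, and the strong sites stand 19.8 and 6.13 kb into Strbp and Trdmt1 and 3.88 kb upstream of Sos2, with the fold in each list printed beside the bar.

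Within the DMSO list the 3 strong sites held ranks 1, 2 and 3 by fold. Next came a site 386 bp from Hoxa3 with a fold of 28.8, followed by one in Pbx3 with 28.3. In the VTP50469 list Strbp and Trdmt1 were again first and second, but Sos2 did not hold rank 3. A site inside Stim1, which encodes a calcium sensor of the endoplasmic reticulum, had a fold of 26.3 there, above the 25.4 of Sos2. Sos2 tied at rank 4 with a site 787283 bp from Tmprss15. The name of strongest retained site therefore describes Strbp and Trdmt1 in both lists, and Sos2 in the DMSO list.

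Ordered by −log10 q the sites stood lower. Strbp, Trdmt1 and Sos2 ranked 2, 4 and 5 with DMSO, and 2, 3 and 8 with VTP50469. The first place in both lists went to a high-coverage interval 115 kb from Gm2244 with a fold of 1.51 with DMSO and 1.52 with VTP50469. The −log10 q of the strong sites was 221, 126 and 92.5 with DMSO, and 153, 84.3 and 67.5 with VTP50469.

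**Figure D2:**
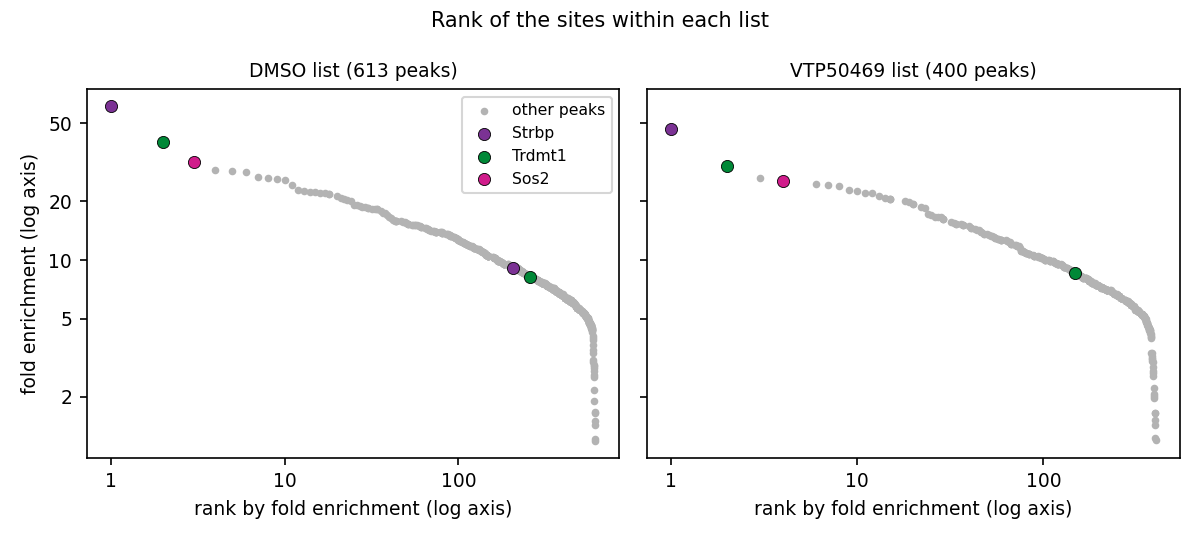
Fold enrichment of every peak against its rank by fold, both on log axes, for the DMSO list of 613 peaks and the VTP50469 list of 400, with the Strbp, Trdmt1 and Sos2 sites coloured. The 3 strong sites lead the DMSO list at 61.4, 39.9 and 31.6, while the weaker sites, at 8.18 to 9.14, fall among the bulk of peaks.

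Of the 5 DMSO intervals 4 overlapped a VTP50469 interval, and of the 4 VTP50469 intervals 4 overlapped a DMSO interval. Over all peaks of the lists the shares were 49.8% and 77.8%. Since presence in both lists was part of the choice of genes, nothing is read from the difference. Strbp, Trdmt1 and Sos2 were among 325 of 21887 protein-coding genes (1.48%) with a DMSO summit in the span or within 10 kb, and among 233 (1.06%) with a VTP50469 summit. Of the 325 genes, 187 (57.5%) had a summit in both lists. Most of the 325 had a single DMSO peak, as Sos2 did. There were 233 such genes, and 51 had 2 peaks, as Strbp and Trdmt1 did.

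The number of fragments at each summit could be rebuilt, because the authors' fold and p-value together fix it under the peak caller's Poisson model. The strong Strbp summit had 406 fragments with DMSO (exact Poisson 95% interval 367 to 447) and 288 with VTP50469 (256 to 323). The strong Trdmt1 summit had 263 (232 to 297) and 185 (159 to 214). The Sos2 summit had 208 (181 to 238) and 156 (132 to 182). The VTP50469 count was thus the lower one at each strong site, before any scaling for depth. The intervals cover counting error only. The counts follow from the folds that chose these sites, so whether the libraries differ was not tested.

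The weaker sites carried far fewer fragments. The weaker Trdmt1 summit had 63 with DMSO (48.4 to 80.6) and 62 with VTP50469 (47.5 to 79.5). The weaker Strbp summit had 58 with DMSO (44 to 75). Medians over the lists were 57 and 53.5 fragments, so these were ordinary peaks for height, while the strong sites had 3.65 to 7.12 times the DMSO median.

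**Figure D3:**
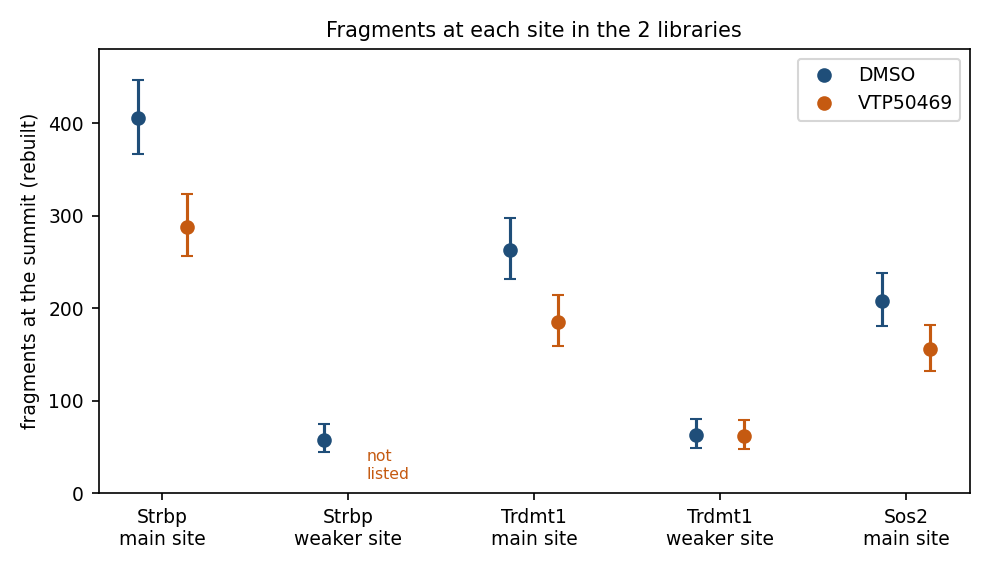
Rebuilt fragments at the summit of each site, with exact Poisson 95% intervals, in the DMSO and VTP50469 libraries. The strong Strbp, Trdmt1 and Sos2 sites have 406, 263 and 208 fragments with DMSO and 288, 185 and 156 with VTP50469, the weaker Trdmt1 site has 63 and 62, and the weaker Strbp site is not listed with VTP50469.

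Heights were then set on 1 scale. If both lists were called against the same control, which no source used here states, the VTP50469 library was 5.5% less deep than the DMSO library. After that scaling the ratio of VTP50469 to DMSO fragments was 0.751 at the strong Strbp site (exact binomial 95% interval 0.643 to 0.875). It was 0.744 (0.613 to 0.902) at the strong Trdmt1 site and 0.794 (0.641 to 0.982) at Sos2. The weaker Trdmt1 site had a ratio of 1.04 (0.721 to 1.5). These intervals compare 2 libraries and not the treatments, and the sites were chosen by their height.

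Lower counts with VTP50469 were common among the matched summits. Over 287 summits matched within 200 bp between the lists the median ratio was 0.901 (interquartile range 0.754 to 1.04), and 195 lay below 1. Counted from the lowest ratio, Trdmt1, Strbp and Sos2 held places 67, 71 and 88 of 287, and the weaker Trdmt1 site place 214. Among the 84 matched summits with at least 100 DMSO fragments, a set that is itself picked on the DMSO count, the median was 0.835 (0.711 to 0.978). The 3 strong sites lay inside that interquartile range.

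**Figure D4:**
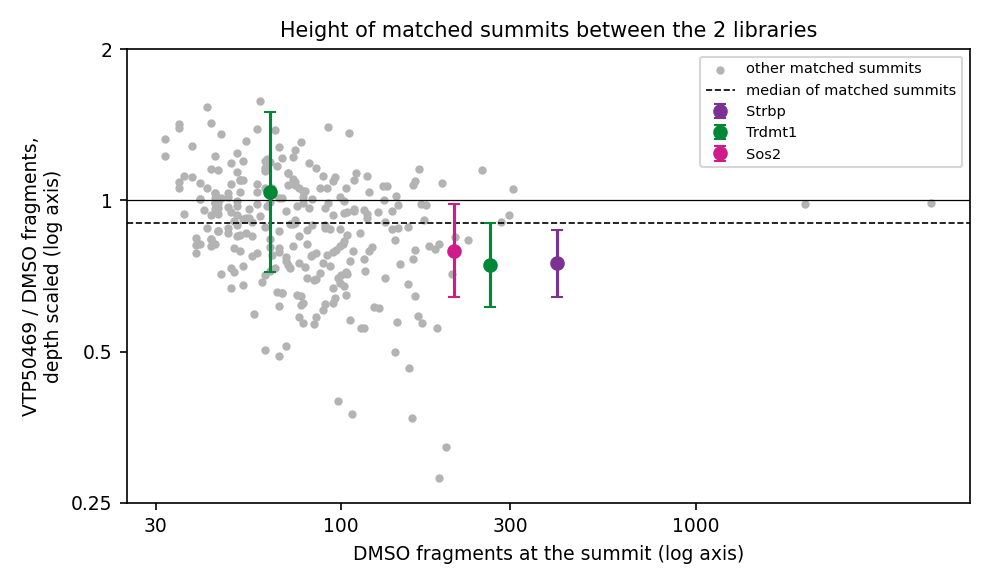
Depth-scaled ratio of VTP50469 to DMSO fragments against DMSO fragments, both on log axes, for 287 matched summits, with exact binomial 95% intervals on the Strbp, Trdmt1 and Sos2 sites. The dashed line is the median of 0.901, and the strong sites lie below it at 0.744 to 0.794 while the weaker Trdmt1 site lies above it at 1.04.

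The absence of the weaker Strbp site from the VTP50469 list is not a count of 0. The weakest VTP50469 peak listed at the common background of that library, the background level that most of its summits share, had 26 fragments. If both lists were called against the same control, the 58 DMSO fragments would amount to 54.8 at the VTP50469 depth. That is more than at 203 of 396 VTP50469 summits whose count was rebuilt (51.3%), and those summits differ in background. On that scale a site of the DMSO height would have stood above many listed peaks. Its height with VTP50469 is not known from the list.

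Background differed between the sites. At the strong Strbp, Trdmt1 and Sos2 summits and at the weaker Strbp summit the fold was taken over the common background, 1.31 with DMSO and 1.29 with VTP50469, in fragments on the scale of the control. At the weaker Trdmt1 summit the local background was higher, 1.80 and 1.77. At the strong sites, then, the local control did not raise the background above the common level.

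The rule kept only summits in or within 10 kb of a span, so the distances to a start below are partly set by the choice and are given as a description. The strong summits lay 19.2, 6.13 and 3.88 kb from the nearest protein-coding start in the DMSO list, the Strbp value being to its inner start, and in each case this was a start of the same gene. Within 20 kb of such a start lay 167 of 595 DMSO peaks (28.1%, exact Clopper-Pearson 95% interval 24.5 to 31.9%) and 104 of 390 VTP50469 peaks (26.7%, 22.3 to 31.4%) on chromosomes with listed starts. The median distance was 54.3 kb with DMSO and 65.5 kb with VTP50469. Among the 50 DMSO peaks of highest fold 16 lay within 20 kb, the 3 strong sites included. The starts listed covered 17492 of 21887 protein-coding genes, so some distances are upper limits, and nothing is read from the 3 sites against these shares.

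**Figure D5:**
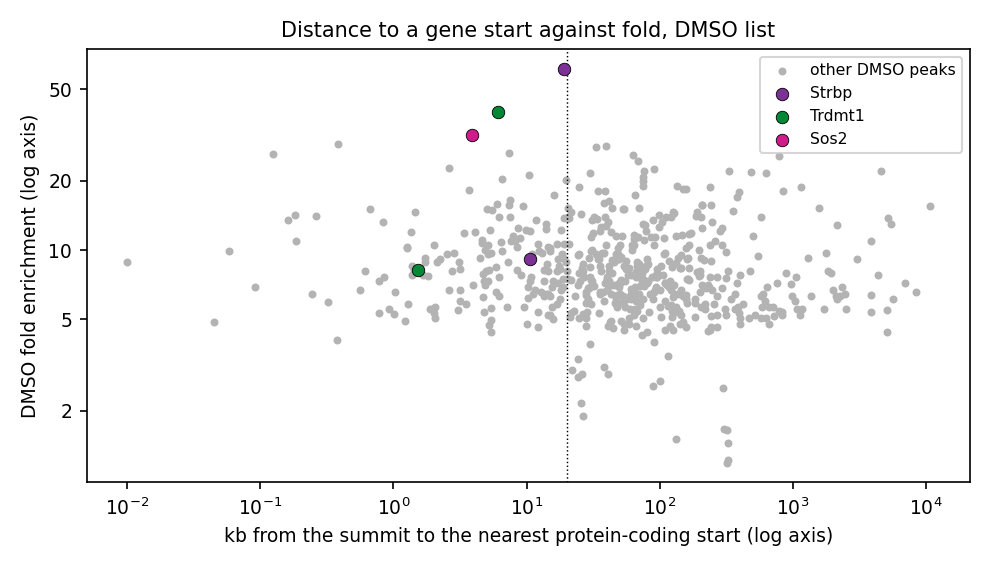
Fold enrichment of DMSO peaks against distance from the summit to the nearest listed protein-coding start in kb, both on log axes, with the dotted line at 20 kb. All 5 DMSO sites of Strbp, Trdmt1 and Sos2 fall to the left of the line, where 28.1% of DMSO peaks lie (distances under 0.01 kb are drawn at 0.01).

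Distances to the next peak were taken with the other sites of the same gene left out. Spacing over the whole lists was not computed, so the distances are a description only. The next DMSO peak outside the gene was 482 kb from the strong Strbp summit, in Dennd1a, and the next VTP50469 peak was 3320 kb away, in Pbx3. For Trdmt1 the next peak was in Stam, 591 kb away in both lists. For Sos2 it was in Map4k5, 165 kb away with DMSO and 168 kb away with VTP50469. Against the limit of 10 kb, the summit farthest outside a span was that of Sos2, at 3883 bp with DMSO and 3896 bp with VTP50469, and the nearest one left out was the Map4k5 peak.

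Of 9 protein-coding genes with a listed start within 100 kb of the 3 spans, 1 had a DMSO summit in the span or within 10 kb and 0 had a VTP50469 summit. Over all protein-coding genes the shares were 1.48% and 1.06%, and nothing is read from so few neighbours. The gene with a summit was Dennd1a, whose product acts in endocytosis and whose span begins 95112 bp beyond Strbp, with 2 DMSO peaks. The nearer of these peaks lay 482 kb from the strong Strbp summit, so neither was within 100 kb of it. The nearest such genes with no peak of their own were Rabgap1, which overlaps the far end of Strbp, and Crb2 on its other side. Beside Trdmt1 they were Cubn, which encodes the receptor cubilin, and the intermediate filament gene Vim. Beside Sos2 they were Vcpkmt, 744 bp beyond the far end of the gene, and Dmac2l on the side of the site. The span of Dmac2l lay 39178 bp from the DMSO summit.

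Some relatives of the 3 genes had peaks. Of 53 listed relatives 4 had a DMSO summit and 3 a VTP50469 summit in the span or within 10 kb, against 1.48% and 1.06% of all protein-coding genes. The listed genes were not matched for length, and nothing particular to them is read from these shares. None of 11 cytosine methyltransferase genes listed beside Trdmt1, such as Dnmt1 and Nsun2, had a peak in either list. Of 14 double-stranded RNA-binding and NF45/NF90 relatives of Strbp, Zfr, which encodes a related zinc finger protein, had a peak in both. Its fold was 6.12 with DMSO (50 fragments) and 5.89 with VTP50469 (34 fragments), 29.0 and 29.1 kb downstream of its start.

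Of 28 genes of RAS regulation and signalling listed beside Sos2, 3 had a DMSO peak and 2 a VTP50469 peak. Sos1, the paralogue of Sos2, held a site at chr17:80429994-80430411 with a fold of 10.5 with DMSO, and at chr17:80430009-80430485 with a fold of 13.4 with VTP50469. The summit lay 50.2 kb downstream of the Sos1 start, inside the gene, unlike the Sos2 site. It had 67 fragments with DMSO and 81 with VTP50469, a depth-scaled ratio of 1.28 (0.914 to 1.8), while the ratio at Sos2 was 0.794. The interval at Sos1 spans 1, and whether the ratios at Sos1 and Sos2 differ was not tested.

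Gab2, which encodes a docking protein that binds GRB2 and SHP2, held 2 sites in each list. The site at chr7:97085324-97085715 had a fold of 19 and 124 fragments with DMSO, and a fold of 12 and 72 fragments with VTP50469, a ratio of 0.614 (0.453 to 0.828). The site at chr7:97136413-97137784 had 144 and 78 fragments, a ratio of 0.573 (0.429 to 0.76). Nf1, which encodes a GTPase-activating protein that turns RAS off, had a DMSO peak of fold 6.59 with 41 fragments and no VTP50469 peak.

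By fold in both libraries, the site outside the 3 genes nearest to each strong site was the one beside Hoxa3. It lay at chr6:52213210-52213636, with folds of 28.8 and 23.8. Likeness was taken as the distance between log2 folds over the 2 libraries, among 283 matched sites. Sites of the 3 genes were left out, so they were not compared with each other. The distance was 0.17 from Sos2, 0.58 from Trdmt1 and 1.46 from Strbp. Fold chose the 3 genes and Strbp had the highest in both lists, so its larger distance follows from the choice. Second for Sos2 and Trdmt1 was a site 33485 bp from Hibadh, at distances of 0.24 and 0.65, and second for Strbp was the one far from Tmprss15, at 1.53. The depth-scaled ratios of these were 0.817 (0.654 to 1.02) beside Hoxa3, 0.799 (0.637 to 1.0) near Hibadh and 0.983 (0.785 to 1.23) far from Tmprss15.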

How the data were processed

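Peak lists of 2 BioChIP-seq pull-downs were used, 1 library per group. The submitters' processing notes list MACS2, bedtools, SAMtools 1.95, Picard 2.9.4, STAR 2.7.5a and bcl2fastq 2.20.0.422, and the mm10 build. The sources used here give neither the role of each tool nor the control or the calling threshold. The authors deposited, per library, a fold enrichment (a ratio to background), a −log10 p-value, a −log10 q-value and a score, which repeats the q-value and was not used. The lists hold no read totals, and depth is given below only as a rebuilt ratio.

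Members and gene lists were chosen with earlier results of these data known. Named were the 3 members, listed relatives with a peak, and neighbours with a listed start within 100 kb that are nearest or have a peak. Also named were the 2 sites outside the 3 genes most like each strong site by log2 fold in both lists. Peaks overlapping by at least 1 bp were shared, on chromosomes 1 to 19, X and Y.

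Fragments at each summit and the background were solved from fold and p-value under a Poisson model with a pseudocount of 1, within 0.001 of the listed −log10 p, for 611 of 613 DMSO and 396 of 400 VTP50469 peaks. The rebuilding and the set of summits with at least 100 fragments were devised after earlier results were known. Scripts were tested on simulated data. Gene spans came from RefSeq GRCm38.p6, the same primary assembly as mm10. Alternatives covered flank, strength, overlap, list length, rank and scaling. Work was done in Python 3.11.15 with scipy 1.17.1, numpy 2.4.6 and pandas 2.3.3, and figures with matplotlib 3.10.9.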

Additional observations from a re-analysis of the deposited data

How the results depend on the processing

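Among 42 alternatives, 5 moved and 37 did not, by a limit of 1.5 times for counts and ranks and the 95% interval for shares and ratios. The 5 were ranks by −log10 q in place of fold. With DMSO they were 2 for Strbp, 4 for Trdmt1 and 5 for Sos2, and with VTP50469 they were 2 for Strbp and 8 for Sos2, because high-coverage intervals of low fold have high −log10 q and, with VTP50469, other sites also pass Sos2. Counts of sites at flanks of 0, 2 and 50 kb and at −log10 q of at least 5 and 10 stayed within 1.5 times the main count, the Sos2 site being lost at 0 and 2 kb. Shared sites were the same number under every overlap rule tried and at equal list length. Ratios of fragments without depth scaling, or centred on the median matched ratio, were added after seeing the data. The strong sites then had ratios of 0.703 to 0.75 without scaling and 0.826 to 0.881 when centred, and the weaker Trdmt1 site 0.984 and 1.16, which falls below 1 without scaling.

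No paired analysis was possible because each group had 1 library. Precision rests on the authors' calls and on fragments per summit, so the weaker sites are the least certain.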
